A study of Homo sapiens with 12 samples.

Results

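Knockdown of TTK was examined in SCC-15, a human oral squamous cell carcinoma line, in 6 of the 12 libraries of the series. The members are the 3 SCC-15 libraries labelled shTTK and the 3 labelled shControl, and the other 6 libraries hold the same comparison in CAL-27, a second line of the same tumour type. In the labels the shTTK samples have the genotype TTK knockdown and the control samples the genotype WT, all are untreated and all are in batch 1. The control samples are called both shControl and WT, so whether they carried a control hairpin is not settled by the labels. The sources used here give neither the hairpin sequence nor whether the knockdown cells are a clone or a pool. Nothing in the labels says that the numbered libraries came from separate cultures, so the p-values measure only how these samples vary, and that variation may be technical.

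TTK, also called MPS1, is a protein kinase of the spindle assembly checkpoint. It acts at kinetochores that lack a proper microtubule attachment, where it helps to recruit the checkpoint proteins that hold back anaphase. Loss of its activity is known to allow anaphase with misaligned chromosomes, and chromosome gain or loss is a known outcome in dividing cells.

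The 6 libraries had total counts between 17092318 and 17865900, and 16946 genes passed the filter on low counts. Levels are CPM (counts scaled to a common library total) after TMM scaling, and changes are log2 fold changes of shTTK over shControl. Markers of the labelled cell type were present: 21 squamous epithelial markers were tested, and their summed level lay between 12528 and 12950 CPM in the 3 control libraries and between 12894 and 12924 CPM in the 3 shTTK libraries. Of the markers of other cell types, 5 fibroblast, 3 leukocyte, 4 endothelial and 2 melanocyte genes passed the filter. Of these only FBLN1, a fibulin in the fibroblast list, was called (from 150.0 to 173 CPM, edgeR adjusted p = 7.74e-06). The summed fibroblast level was 167 to 177 CPM in the controls and 191 to 197 CPM in the shTTK libraries, and the endothelial sum 3.11 to 3.89 and 4.25 to 4.61 CPM. The leukocyte sum was 9.12 to 10.6 CPM in the controls and 7.95 to 8.49 CPM in the shTTK libraries, and the melanocyte sum 15.9 to 19.3 and 13.1 to 17.3 CPM. The first 3 sums did not overlap between the groups, as was the case for 38.9% of single tested genes. FBLN1 made up most of the fibroblast sum. CSF1R, at 9.32 of 9.76 CPM in the control mean, made up most of the leukocyte sum and was not called (edgeR adjusted p = 0.150). The part of these sums in the results was not tested. No counts in any of the 6 libraries were found for 3 of 12 fibroblast, 5 of 14 leukocyte, 3 of 10 endothelial and 1 of 7 melanocyte markers. RNA came from bulk cultures, in which fewer cells of a type and less RNA per cell cannot be told apart.

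TTK (ENSG00000112742.9, GRCh38 chr6:80003887-80042527, plus strand) was at 67.5, 69.4 and 72.9 CPM in the control libraries and 26.9, 29.2 and 34.3 CPM in the shTTK libraries. Every control library lay above every shTTK library. The level was 2.32-fold lower, a log2 fold change of -1.21 ± 0.065 (SE, n = 3 against 3, edgeR quasi-likelihood test with Benjamini-Hochberg adjustment, adjusted p = 1.92e-25). The transcript was therefore reduced but still measured, at 43.1% of the control level. Of 29 spindle assembly checkpoint genes tested, TTK included, 7 were higher and 6 lower (24.1% and 20.7%, beside 13.4% and 14.3% of all tested genes). In either direction 44.8% were called. This compares with 27.7% of all tested genes and 38.5% of those with a mean of at least 5 CPM in the higher group. SPDL1, the kinetochore adaptor spindly, rose from 58.6 to 85.3 CPM, and CDC20, the coactivator that the checkpoint restrains, rose from 331 to 380.4 CPM. INCENP, the scaffold of the chromosomal passenger complex, fell from 151 to 118 CPM, and KNTC1, the ROD subunit of the complex that loads dynein on kinetochores, fell from 96.9 to 74.4 CPM. Their log2 fold changes were 0.54, 0.20, -0.36 and -0.38, with edgeR adjusted p-values of 1.11e-13, 1.47e-07, 3.62e-12 and 2.59e-10.

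**Figure D1:**
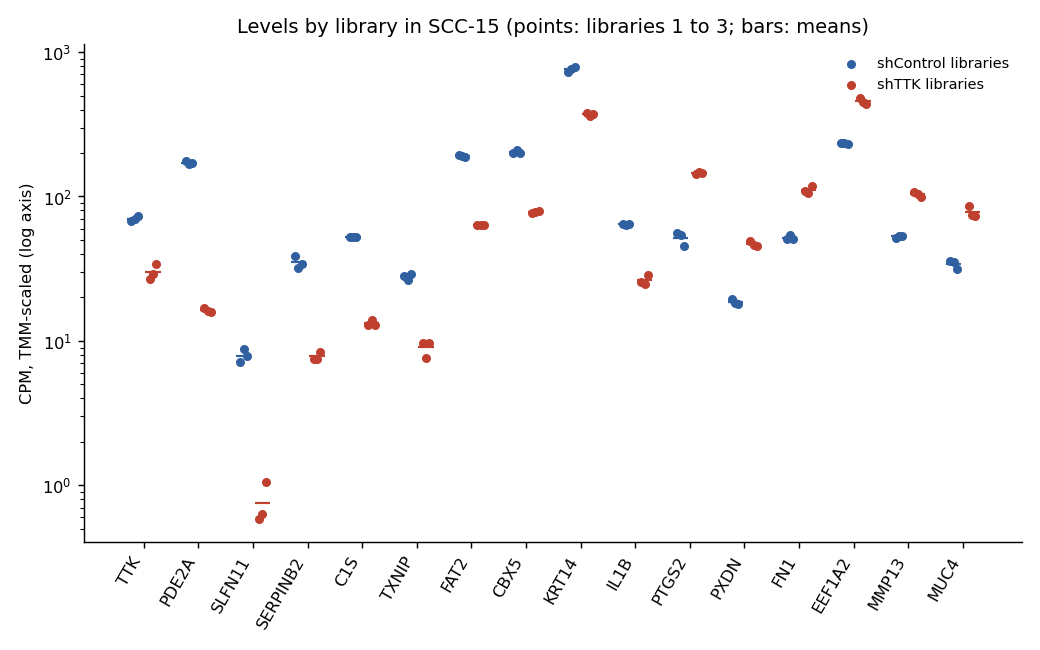
Levels of TTK and 15 genes of the text in each SCC-15 library, in TMM-scaled CPM on a log axis, with points for libraries 1 to 3 of each group and bars for the group means. The groups do not overlap for any of the genes shown, and the gap is widest for PDE2A and SLFN11.

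Library 1 of each group differed from its companions, and in the control group mainly in mitochondrially encoded RNA. MT-RNR2, the large mitochondrial ribosomal RNA, was at 6849, 2084 and 2190.4 CPM in the control libraries and 1315, 1065 and 1034 CPM in the shTTK libraries. Control library 1 was thus about 3 times the level of the other controls, while the shTTK libraries lay close together. The share of all counts from mitochondrially encoded genes was 3.86%, 3.01% and 2.94% in the control libraries and 2.69%, 2.36% and 2.35% in the shTTK libraries. Library 1 had the highest share in both groups. Per gene, the mean chi-square of control library 1 against libraries 2 and 3 was 5.62 and 5.96 over all genes with at least 20 counts in the pair, and 2.17 and 2.40 once mitochondrially encoded genes were left out. Libraries 2 and 3 gave 1.98 and 1.89. For shTTK library 1 the values were 3.07 and 3.78 with these genes and 2.60 and 3.24 without them, beside 1.95 and 1.94 between libraries 2 and 3, so that shTTK library 1 remained further from the others.

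Among genes with a mean of at least 20 CPM, MT-ND6, a complex I subunit, was at 351, 190.0 and 166 CPM in the control libraries and 280.3, 147 and 141 CPM in the shTTK libraries, and MT-ND5, another subunit of that complex, was at 1802, 1288 and 1254 CPM in the control libraries and 1683, 1130.2 and 1054 CPM in the shTTK libraries. Both were highest in library 1 of each group, and neither was called between the groups (edgeR adjusted p = 0.567 and 0.601). The opposite held for MAGOH, a core protein of the exon junction complex, which was at 30.2, 36.2 and 40.5 CPM in the control libraries and 34.4, 45.5 and 45.5 CPM in the shTTK libraries and lowest in library 1 of each group. Of 7630 genes at this level, 8 were off by at least 0.5 on the log2 scale in control library 1, 5 were in shTTK library 1, and 4 were in both, 2 with the same sign and 2 with opposite signs. Without both libraries numbered 1, 3657 genes were called in place of 4694, and 3376 of these calls were shared in the same direction, or 71.9% of the full set of calls and 92.3% of the smaller one. All 4694 calls kept their sign.

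Of 30 mitochondrially encoded genes tested, 10 were lower, 3 higher and 17 not called between the groups. Those higher were MT-TN (from 26.2 to 33.4 CPM), MT-ATP8 (from 7.86 to 10.1 CPM) and MT-TG (from 6.51 to 8.73 CPM). MT-CO2, a core subunit of cytochrome c oxidase, was at 2695, 2811 and 2754 CPM in the control libraries and 2184, 2019 and 2003 CPM in the shTTK libraries. The groups did not overlap, and its log2 fold change was -0.41 ± 0.027 (SE, edgeR adjusted p = 2.20e-21). MT-CO3, another core subunit of this oxidase, fell from 3589.6 ± 235 to 2903 ± 46 CPM (SD, n = 3) and MT-ATP6, a subunit of ATP synthase, fell from 3166 ± 316 to 2396 ± 188 CPM (SD, n = 3). MT-CO1 fell from 6781 ± 406 to 5686 ± 218 CPM (SD, n = 3). Without both libraries numbered 1 the log2 fold changes of MT-CO2, MT-CO3, MT-ATP6 and MT-CO1 were -0.47, -0.25, -0.39 and -0.23, all still called (edgeR adjusted p of at most 1.28e-07). MT-RNR2 had a log2 fold change of -1.70 ± 0.43 (SE, edgeR adjusted p = 0.0181), which was -1.02 without both libraries numbered 1 (edgeR adjusted p = 2.43e-04). Its call was lost with SCC-15 fitted alone (edgeR adjusted p = 0.113), without shTTK library 2 (edgeR adjusted p = 0.0657) and without shTTK library 3 (edgeR adjusted p = 0.0645), and that of MT-ATP6 with SCC-15 fitted alone (edgeR adjusted p = 0.0508).

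Across the genome the knockdown libraries differed from the controls in many genes by small amounts. Of the 16946 genes, 2277 (13.4%) were higher and 2417 (14.3%) lower at an adjusted p under 0.05. The median size of a called change was 0.28 on the log2 scale, or 1.22-fold. At least 2-fold changes were fewer and leaned downward, with 119 genes (0.702%) higher and 279 (1.65%) lower, and at a log2 size of at least 2 there were 16 higher and 86 lower. A direct test against a 1.5-fold change (edgeR glmTreat) called 213 genes (1.26%), 47 higher (0.277%) and 166 lower (0.98%), or 166 genes in all without both libraries numbered 1. Calls depended on level: 38.5% of the 10856 genes with a mean of at least 5 CPM in the higher group were called, against 8.42% of the 6090 genes below it. The counts of called list members, those of the checkpoint list above included, are to be read beside these shares. Shares in lists of higher-level genes can therefore lie above those of all tested genes. Control and shTTK libraries did not overlap in 6591 genes (38.9%), of which 4454 were also called. Protein-coding genes were called in 32.8% of 13418, long intergenic RNAs in 8.11% of 789 and antisense RNAs in 5.73% of 994, at median levels of 26.1, 0.780 and 0.880 CPM.

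**Figure D2:**
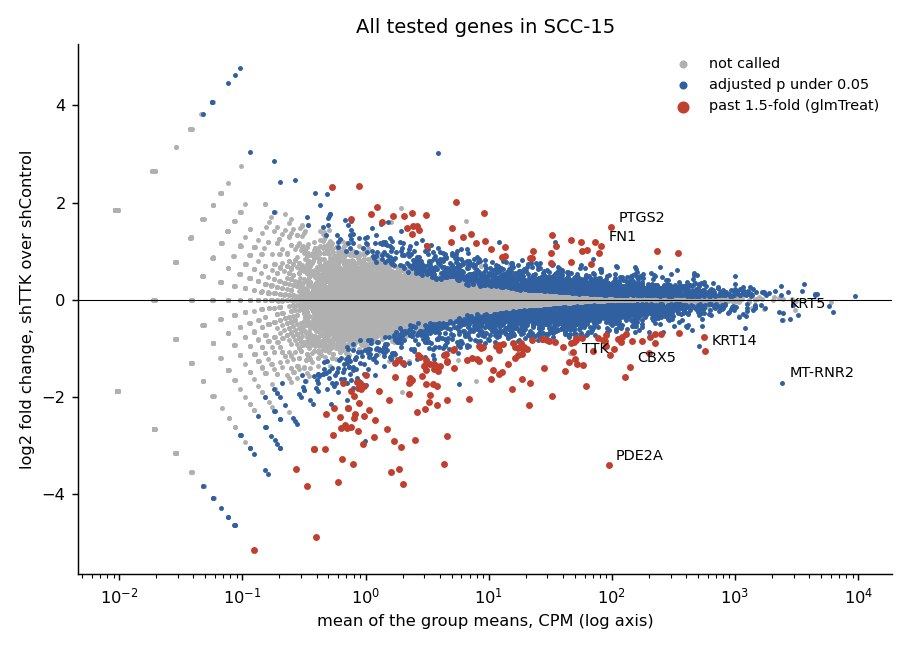
Log2 fold change of shTTK over shControl against the mean level of each of the 16946 tested genes in SCC-15, with the level in CPM on a log axis. Grey points were not called, blue points were called at an adjusted p under 0.05, and red points are the 213 genes past a 1.5-fold change, of which 166 lie below 0.

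The largest decrease among well-measured genes was in PDE2A, a phosphodiesterase that breaks down cAMP and cGMP and is stimulated by cGMP. It was at 176, 168 and 171 CPM in the control libraries and 16.9, 16.2 and 15.8 CPM in the shTTK libraries, so that no shTTK library reached 17 CPM. The level was 10.5-fold lower (log2 fold change -3.40 ± 0.064 SE, edgeR adjusted p = 7.66e-56). Of 21 phosphodiesterases and cyclases tested, 4 were lower and 0 higher, and the 19% lower compares with 14.3% of all tested genes. The other 3, PDE12, PDE10A and the cGMP-dependent kinase PRKG1, which the list includes, had edgeR adjusted p-values between 0.0266 and 0.0483, and their calls were lost under 5, 9 and 10 of the 15 alternative settings.

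SLFN11, a Schlafen protein that blocks stressed replication forks, was at 7.14, 8.78 and 7.86 CPM in the control libraries and 0.583, 0.634 and 1.06 CPM in the shTTK libraries. All shTTK libraries were near 1 CPM or below. EPDR1, a secreted ependymin-related protein, was at 8.17, 6.66 and 9.15 CPM in the control libraries and 1.40, 1.21 and 0.838 CPM in the shTTK libraries, again with no overlap. Their levels were 10.3-fold and 6.93-fold lower (edgeR adjusted p = 8.01e-26 and 2.37e-15). In the same direction, SLFN5 fell from 48 to 34.9 CPM and SLFN12 fell from 8.31 to 5.12 CPM. Thus 3 of 5 tested Schlafen genes were lower and 0 higher, beside 14.3% and 13.4% of all tested genes. All 3 lie in a stretch of chromosome 17 in which 28 of 39 genes were lower and 0 higher. A change of the family therefore cannot be told apart from that of its region.

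Complement genes were lower in 9 of 22 tested members and higher in 1, with a median log2 fold change of -0.15. These shares were 40.9% and 4.55%, beside 14.3% and 13.4% of all tested genes. C1S, the serine protease of the classical pathway's first component, was at 52.2, 52.2 and 52.1 CPM in the control libraries and 12.9, 14.1 and 12.9 CPM in the shTTK libraries. Its control libraries lay within 1 CPM of each other and about 4 times above the shTTK libraries. C1R, the protease that activates C1S, fell from 20.3 ± 1.21 to 8.16 ± 1.06 CPM (SD, n = 3), and C3, the central component, fell from 11.3 ± 1.26 to 4.86 ± 0.598 CPM (SD, n = 3). Their log2 fold changes were -1.97 ± 0.062, -1.32 ± 0.087 and -1.21 ± 0.086 (SE), and the largest edgeR adjusted p of these 3 was 1.10e-19. CD55, a membrane protein that dissociates the convertases, rose from 75.5 to 93.4 CPM.

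Epidermal differentiation and adhesion genes moved both ways. FLG, filaggrin, the matrix protein of the cornified layer, was at 24.2, 23.5 and 25.1 CPM in the control libraries and 7.41, 5.88 and 7.26 CPM in the shTTK libraries, with every control library above 23 CPM and every shTTK library below 8 CPM. Its antisense transcript FLG-AS1 fell from 6.27 to 1.39 CPM, but the strand setting of the counting is not given, so reads of the pair cannot be told apart. FAT2, an atypical cadherin of squamous epithelium, was at 193, 191 and 188 CPM in the control libraries and 63.6, 63.9 and 63.9 CPM in the shTTK libraries, a 2.99-fold decrease (edgeR adjusted p = 5.69e-50). ZNF750, a transcription factor of epidermal differentiation, fell from 8.92 ± 1.38 to 2.67 ± 0.942 CPM (SD, n = 3, edgeR adjusted p = 0.00356). HRNR, hornerin, fell from 4.34 to 1.70 CPM, whereas SPRR1B, a small proline-rich precursor of the cornified envelope, rose from 0.942 to 3.14 CPM.

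Keratins moved both ways, with 4 of 21 tested higher and 6 lower. KRT14, the basal type I keratin, was at 729, 767 and 793 CPM in the control libraries and 379.6, 358 and 371 CPM in the shTTK libraries, a 2.06-fold decrease (edgeR adjusted p = 4.59e-33). Its basal partner KRT5 fell from 2658 ± 27 to 2204 ± 30.9 CPM (SD, n = 3). The pair of simple epithelia rose, KRT8 from 831 ± 15 to 1161 ± 14 CPM and KRT18 from 307 ± 3.14 to 393 ± 5.15 CPM (SD, n = 3), and KRT80 rose from 247 to 359 CPM and KRT7 rose from 341 to 414 CPM. KRT13, KRT15, KRT6A and KRT1 were the other keratins called lower. Keratin genes have near-identical paralogs and pseudogenes, so reads could be split between copies. CDH1, E-cadherin, rose from 24.1 to 40.5 CPM.

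Among called genes of inflammatory signalling more were lower than higher, while most of those tested were not called. IL1B, interleukin-1 beta, was at 64.2, 64 and 64.2 CPM in the control libraries and 25.5, 24.8 and 28.8 CPM in the shTTK libraries, and the groups did not overlap. ICAM1, a leukocyte adhesion molecule, fell from 23.7 ± 0.594 to 10.8 ± 1.40 CPM (SD, n = 3), and IL1A fell from 81.6 ± 2.61 to 60.2 ± 2.87 CPM (SD, n = 3). Their log2 fold changes were -1.28 ± 0.068, -1.14 ± 0.072 and -0.44 ± 0.044 (SE, edgeR adjusted p = 1.48e-11, 1.76e-22 and 3.89e-12). Of 39 NF-kB subunits, inhibitors and targets, 11 were lower, 2 higher and 26 not called, with a median of -0.05 beside 0 over all tested genes. Among 57 interleukins, chemokines and receptors, 11 were lower, 4 higher and 42 not called. Of these 57, 26.3% were called, close to the 27.7% of all tested genes. SERPINB2, an inhibitor of urokinase, was at 38.5, 32.2 and 34.2 CPM in the control libraries and 7.52, 7.49 and 8.44 CPM in the shTTK libraries, a 4.47-fold decrease (edgeR adjusted p = 1.58e-25), whereas PLAUR, the urokinase receptor, rose from 25 to 40.9 CPM.

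Of 10 alpha-arrestins and glucose-response factors tested, 4 were lower and 3 higher. TXNIP, an alpha-arrestin that restrains glucose uptake and binds thioredoxin, was at 28.3, 26.5 and 29.3 CPM in the control libraries and 9.68, 7.66 and 9.72 CPM in the shTTK libraries. ARRDC4, its closest relative, fell from 5.28 ± 1.03 to 1.22 ± 0.162 CPM (SD, n = 3). These were 3.10-fold and 4.30-fold decreases (edgeR adjusted p = 7.33e-25 and 1.14e-15). MLXIP, the glucose-sensing factor MondoA, fell from 178 to 123 CPM, while its relative MLXIPL, ChREBP, rose from 13.4 to 23.8 CPM. The other genes higher were ARRB2, a beta-arrestin (from 44 to 56.7 CPM), and ARRDC2 (from 25.5 to 29.5 CPM).

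CBX5, the heterochromatin protein HP1 alpha, was at 201, 211 and 199 CPM in the control libraries and 77.1, 78.6 and 79.1 CPM in the shTTK libraries, with the shTTK libraries within 3 CPM of each other (log2 fold change -1.38 ± 0.042 SE, edgeR adjusted p = 4.86e-42). DNM1, a dynamin, fell from 33.2 to 10.2 CPM, and TIMP2, a metalloproteinase inhibitor, fell from 83.5 to 32.9 CPM. GALNT2, which starts mucin-type O-glycosylation, fell from 270.5 to 127 CPM, and AK4, a mitochondrial adenylate kinase, fell from 74.4 to 29.8 CPM. AK4 shares sequence with a pseudogene copy, so its counts are uncertain.

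PTGS2, the inducible cyclooxygenase of prostaglandin synthesis, was at 55.5, 53.8 and 45.3 CPM in the control libraries and 143, 147 and 146 CPM in the shTTK libraries. Every shTTK library was above 140 CPM and every control library below 56 CPM. The level was 2.82-fold higher (log2 fold change 1.5 ± 0.062 SE, edgeR adjusted p = 7.42e-18). PLA2G4A, the phospholipase that releases arachidonic acid, rose from 29 to 45.4 CPM, and PTGER4, a prostaglandin E2 receptor, rose from 15.1 to 23.5 CPM, while HPGD, the enzyme that inactivates prostaglandins, fell from 4.36 to 2.19 CPM. Of 15 prostanoid genes tested, 4 were higher and 4 lower (26.7% each, beside 13.4% and 14.3% of all tested genes). PTGES2, a prostaglandin E synthase, was also among the lower ones. HPGD lies on chromosome 4, in a block where its 40 neighbours had a median log2 fold change of -0.26.

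INHBB, the beta B subunit of activin and inhibin, was at 3.89, 3.79 and 4.69 CPM in the control libraries and 15.1, 14.3 and 13.5 CPM in the shTTK libraries, and MYPN, myopalladin, a sarcomere protein, was at 1.94, 2.30 and 2.17 CPM in the control libraries and 8.40, 9.50 and 7.99 CPM in the shTTK libraries. Neither gene's groups overlapped (fold 3.47 and 4.03, edgeR adjusted p = 4.79e-16 and 2.52e-13). PXDN, peroxidasin, which crosslinks collagen IV, was at 19.5, 18.4 and 18 CPM in the control libraries and 49.5, 45.8 and 45.8 CPM in the shTTK libraries. FN1, fibronectin, was at 50.7, 54.1 and 50.9 CPM in the control libraries and 110.0, 105 and 119 CPM in the shTTK libraries. PXDN and FN1 were 2.52-fold and 2.15-fold higher (edgeR adjusted p = 1.05e-22 and 1.21e-30). Matrix genes moved both ways, with 12 of 30 basement membrane genes higher and 9 lower, and 7 of 35 interstitial matrix genes higher and 8 lower. The shares were 40% and 30%, and 20% and 22.9%, beside 13.4% and 14.3% of all tested genes. MMP13, a collagenase, rose from 52.9 ± 1.09 to 103 ± 4.44 CPM (SD, n = 3), MUC4, a membrane mucin, rose from 34.1 ± 2.30 to 77.8 ± 6.52 CPM (SD, n = 3), and ABCC2, an organic anion transporter, rose from 44.3 ± 2.63 to 101 ± 1.99 CPM (SD, n = 3). EEF1A2, a tissue-restricted translation elongation factor, rose from 235 ± 2.42 to 455 ± 21.3 CPM (SD, n = 3), and ALPP, placental alkaline phosphatase, which has close paralogs, rose from 155 ± 3.89 to 311 ± 26.9 CPM (SD, n = 3). KLK5, a kallikrein protease of the epidermis, rose from 2.65 to 7.36 CPM, and of 10 genes tested in the kallikrein list, which includes the inhibitor SPINK5, 5 were higher and 0 lower. The call of KLK7, 1 of these 5, was lost under 3 alternative settings (edgeR adjusted p up to 0.104).

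BOLA2B had the largest fitted increase among called genes with a mean of at least 5 CPM in the higher group, but its level was at 0.800, 0.689 and 1.06 CPM in the control libraries and 2.33, 16.2 and 2.29 CPM in the shTTK libraries, so that shTTK library 2 alone was far above the rest, and BOLA2B has a near-identical copy. Its call was lost under 8 of the 15 alternatives. It is not read as a change here.

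Immediate early and growth factor feedback genes were more often higher than lower. Of 21 AP-1 and EGR factors, 12 were higher and 3 lower (median 0.29), and of 22 ERK feedback regulators 10 were higher and 2 lower (median 0.25). The shares were 57.1% and 14.3%, and 45.5% and 9.09%, beside 13.4% and 14.3% of all tested genes. JUN, an AP-1 subunit, was at 119.5, 119 and 129 CPM in the control libraries and 199, 185 and 184 CPM in the shTTK libraries, with no overlap (log2 fold change 0.63 ± 0.040 SE, edgeR adjusted p = 5.94e-16). JUNB rose from 383 ± 21.5 to 544 ± 19.3 CPM and DUSP2, a phosphatase of nuclear MAP kinases, rose from 28 ± 2.51 to 65.8 ± 7.42 CPM (SD, n = 3). DUSP4 and DUSP6, which dephosphorylate ERK, rose from 19.3 to 31.1 CPM and from 28.3 to 41.7 CPM. SPRY1, a Sprouty inhibitor, fell from 1.52 to 0.515 CPM, and EGFR, the receptor that signals to ERK, fell from 489.9 ± 8.98 to 340.5 ± 7.84 CPM (SD, n = 3, edgeR adjusted p = 2.35e-25). MAFG fell by 0.47 and ATF3 fell by 0.36 on the log2 scale.

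Actin cytoskeleton and SRF-type genes were higher in 21 of 36 and lower in 3 (median 0.18). These shares were 58.3% and 8.33%, beside 13.4% and 14.3% of all tested genes. ACTG1, cytoplasmic gamma actin, was at 3239, 3242 and 3184 CPM in the control libraries and 4115, 3989 and 4017 CPM in the shTTK libraries, a small rise without overlap (log2 fold change 0.33 ± 0.027 SE, edgeR adjusted p = 9.90e-17). FLNA, filamin A, rose from 2141 ± 76.2 to 2595 ± 35.8 CPM, VCL, vinculin, rose from 387 ± 6.48 to 475 ± 10 CPM, and MYH9, nonmuscle myosin, rose from 1198 ± 27.8 to 1437 ± 5.81 CPM (SD, n = 3). FLNC, the muscle-type filamin, fell from 186 ± 5.76 to 104 ± 2.79 CPM (SD, n = 3), and FHL1 was also among the 3 called lower. Ephrins and Eph receptors were higher in 9 of 17 and lower in 1, with EPHB3 from 29.2 to 44.3 CPM and EFNA5 the lower one, from 15.1 to 11.5 CPM. Cytosolic ribosomal protein genes were higher in 42 of 80 and lower in 7 (median 0.10), S100 proteins in 6 of 17 and 0, and BCL2 family genes in 5 of 19 and 0, among them BMF, a BH3-only protein, from 3.02 to 6.87 CPM. The shares called were 61.3%, 35.3% and 26.3%, and the last is close to the 27.7% of all tested genes. The Eph list had 52.9% higher and 5.88% lower.

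Proteasome and antioxidant genes leaned the other way. Proteasome subunits were lower in 14 of 31 and higher in 1 (median -0.06), with PSMB2 falling from 402 ± 10.1 to 293 ± 3.79 CPM and PSMB3 from 269 ± 2.85 to 209 ± 8.53 CPM (SD, n = 3). Iron handling and antioxidant genes were lower in 18 of 40 and higher in 5 (median -0.09). AKR1C2 and AKR1C1, aldo-keto reductases with near-identical sequences, fell from 27.5 to 13.7 CPM and from 32.1 to 18 CPM, and TFRC, the transferrin receptor, fell from 700.0 to 564 CPM. RAB GTPases were lower in 18 of 55 and higher in 9 (median -0.10). The shares lower and higher were 45.2% and 3.23% for proteasome, 45% and 12.5% for antioxidant and 32.7% and 16.4% for RAB genes. Over all tested genes 14.3% were lower and 13.4% higher.

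Promoter letters were compared for the genes with the largest changes, and 4 windows are shown as examples of changed genes that hold 1 or more of 3 motifs searched. Each is the 250 bases before the annotated start in RefSeq (GRCh38.p14), written on the gene's strand, with capitals for TGACTCA (the AP-1 type site, on either strand), CACGTG (an E-box) or TATAAA. The windows are chr1:153030953-153031202 (plus strand) for SPRR1B, chr1:159076767-159077016 (minus strand) for AIM2, chr15:97960453-97960702 (plus strand) for ARRDC4 and chr1:186680424-186680673 (minus strand) for PTGS2. SPRR1B and PTGS2 were higher, ARRDC4 was lower, and so was AIM2, a cytosolic DNA sensor chosen after its values were seen (3.66, 6.37 and 4.93 CPM in the control libraries and 0.933, 1.32 and 0.894 CPM in the shTTK libraries).
SPRR1B: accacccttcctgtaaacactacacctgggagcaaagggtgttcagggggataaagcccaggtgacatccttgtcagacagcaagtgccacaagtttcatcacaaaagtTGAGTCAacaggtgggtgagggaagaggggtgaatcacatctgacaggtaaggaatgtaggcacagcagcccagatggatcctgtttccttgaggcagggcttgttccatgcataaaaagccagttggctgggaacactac
AIM2: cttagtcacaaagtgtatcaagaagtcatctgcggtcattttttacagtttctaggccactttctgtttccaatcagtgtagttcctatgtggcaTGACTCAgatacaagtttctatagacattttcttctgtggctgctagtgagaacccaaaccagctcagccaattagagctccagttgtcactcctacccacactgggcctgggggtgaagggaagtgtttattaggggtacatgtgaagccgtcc
ARRDC4: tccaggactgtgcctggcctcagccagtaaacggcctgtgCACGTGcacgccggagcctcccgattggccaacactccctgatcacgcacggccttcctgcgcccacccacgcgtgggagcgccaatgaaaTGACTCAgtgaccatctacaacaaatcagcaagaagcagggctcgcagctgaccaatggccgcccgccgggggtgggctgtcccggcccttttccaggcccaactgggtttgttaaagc
PTGS2: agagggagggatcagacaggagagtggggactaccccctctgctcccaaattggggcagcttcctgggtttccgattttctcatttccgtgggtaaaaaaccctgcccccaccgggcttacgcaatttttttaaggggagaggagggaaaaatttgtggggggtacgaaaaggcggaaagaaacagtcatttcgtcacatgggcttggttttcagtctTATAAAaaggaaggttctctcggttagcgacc

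Windows from 250 bases before to 50 bases after the start were found for 11133 tested genes. TGACTCA on either strand was in 3.40% of these, in 10.7% of the 75 windows of genes at least 2-fold higher and in 9.15% of the 153 at least 2-fold lower. The share was higher than that of all windows in both directions, but it rests on 8 and 14 windows. Several of these genes were near the floor, such as FAM225A (from 0.0191 to 0.210 CPM) and C4orf54 (from 0.210 to 0.0194 CPM). The changed genes were not matched to all genes for level or base composition, and the difference in share was not tested. TATAAA was in 5.96% of all windows, 14.7% of those higher and 11.8% of those lower, whereas GGGCGG was in 68.9%, 60% and 47.7%. CACGTG was in 10.1%, 8% and 7.19%, and CCAAT in 36.1%, 34.7% and 35.3%. TGACGTCA was in 3.09%, 1.33% and 0.654%. A pair of kappaB-type motifs and a CArG-type motif were found in 24, 22 and 3 of the 11133 windows. These matches are descriptions of letters in the windows.

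Position in the genome separated the groups as well. On chromosome 4, 241 of 565 tested genes were lower and 13 higher, a median log2 fold change of -0.24, beside 2264 higher and 2176 lower among the 16381 tested genes elsewhere. Chromosome 4 held 3.33% of tested genes and 9.97% of the lower calls. Over 367 of its genes with a mean of at least 5 CPM, the median distance from the control mean was 0.01, -0.01 and -0.01 in the control libraries and -0.27, -0.24 and -0.22 in the shTTK libraries. All 3 shTTK libraries lay below all 3 controls (exact permutation test, two-sided p = 0.1, the smallest that 3 against 3 allows). The control medians lie near 0 because the reference is their own mean. Groups were also separate, with the same p in this permutation test, at far smaller shifts on other chromosomes. Examples are chromosome 7 at -0.014 and chromosome 21 at 0.019, so the separation alone does not mark chromosome 4. In CAL-27 the same difference was -0.04. The share of nuclear counts from chromosome 4 was 1.91%, 1.89% and 1.89% in the control libraries and 1.55%, 1.58% and 1.61% in the shTTK libraries.

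**Figure D3:**
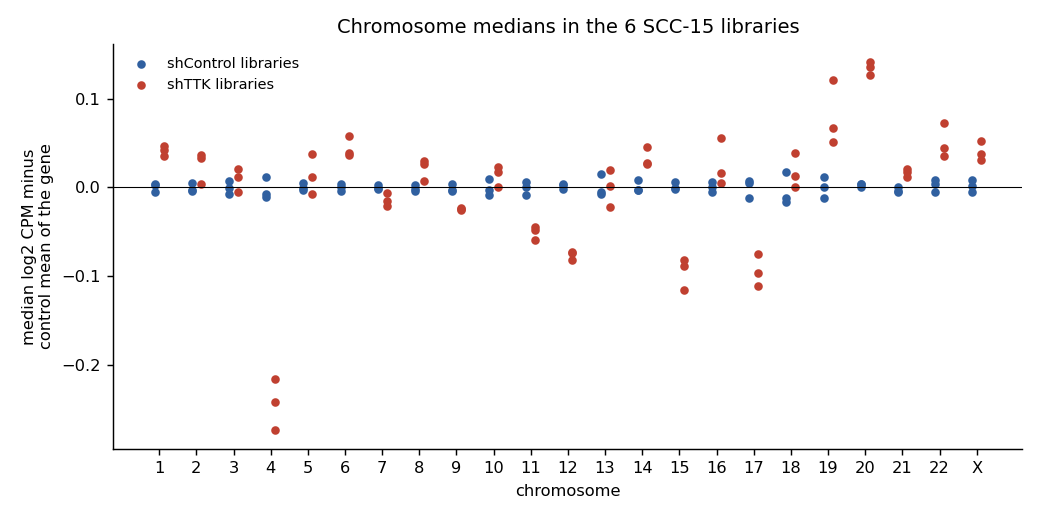
Median over genes of log2 CPM minus each gene's control mean, by chromosome, for the 3 shControl (blue) and 3 shTTK (red) libraries of SCC-15. The shTTK points of chromosome 4 lie between -0.27 and -0.22, and those of chromosome 20 between 0.13 and 0.14.

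The lower level on chromosome 4 was spread over many genes. Of 200 genes with a mean of at least 20 CPM there, 172 (86%) had a negative fold change, against 47.6% of such genes elsewhere, and the 10th and 90th percentiles were -0.58 and 0.04. Examples chosen after their values were seen are PPAT, the first enzyme of purine synthesis (from 65.9 to 31.3 CPM), METAP1, a methionine aminopeptidase (from 153 to 84.1 CPM), ADH5, which breaks down formaldehyde adducts (from 153 to 90.4 CPM), and CLOCK, a circadian factor (from 61.5 to 37.9 CPM). PCDH7, a protocadherin, was at 318, 312 and 299 CPM in the control libraries and 191, 193 and 184 CPM in the shTTK libraries. Members of the gene groups above that lie on chromosome 4 include NFKB1, an NF-kB subunit (log2 fold change -0.39), RBPJ, the Notch factor (-0.34), MAD2L1, the checkpoint protein MAD2 (-0.21), SPRY1 (-1.55), EIF4E, the cap-binding protein (-0.69), and SLC7A11, the cystine transporter (-0.33). Genes higher there included S100P, a calcium-binding protein (from 4.84 to 10.8 CPM), and ANXA10, an annexin (from 35.7 to 53.2 CPM).

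Divided into 9 blocks of about 42 consecutive protein-coding genes, chromosome 4 was lower in 8, with block medians from -0.37 to -0.20. The other block, from EVC to PI4K2B (GRCh38 chr4:5711197-25279092), had a median of -0.01 with 4 genes higher and 8 lower. Over the genome 5 of 270 blocks were at or below -0.25, and 4 of these were on chromosome 4. The remaining block lay on chromosome 17 from LRRC37B to SRCIN1 (chr17:32007872-38605930), where 28 of 39 genes were lower and 0 higher (median -0.39). It holds SLFN5, SLFN11 and SLFN12, and the 38 genes other than SLFN11, which include SLFN5 and SLFN12, had a median of -0.35. The single block at or above 0.25 was at the start of chromosome 11, from BET1L to CTSD (chr11:167784-1764573), with 28 of 39 genes higher, 0 lower and a median of 0.28. It holds IFITM2 (from 22.1 ± 0.675 to 47.7 ± 1.75 CPM, SD, n = 3), IFITM3 and IFITM1, interferon-induced membrane proteins whose counts may be split between near-identical copies. No block of CAL-27 reached 0.25 in either direction.

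Several other chromosomes leaned one way in all their blocks. On chromosome 20, of 452 tested genes, 154 were higher and 25 lower, a median of 0.14, and all 7 blocks had positive medians from 0.07 to 0.18. The library medians were 0.14, 0.13 and 0.14 in the shTTK libraries and between 0.00075 and 0.0041 in the controls. On chromosome 19, 238 of 1081 genes were higher and 48 lower (median 0.09), and its 18 block medians ran from 0.02 to 0.17. On chromosome 15, 30 of 567 were higher and 120 lower (median -0.09), and its 8 block medians ran from -0.14 to -0.07. Block medians were also all positive on chromosomes 21 and 22, at most 0.11. EEF1A2 lies in the last block of chromosome 20, where the 41 other genes had a median of 0.12. Base composition moved with the change in a smaller way: over 4 equal classes of transcript GC content, from lowest to highest, medians elsewhere rose from -0.02 to 0.05, and those of chromosome 4 were -0.25, -0.26, -0.22 and -0.13. DNA copy number was not measured, and its part in these regional values was not tested.

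**Figure D4:**
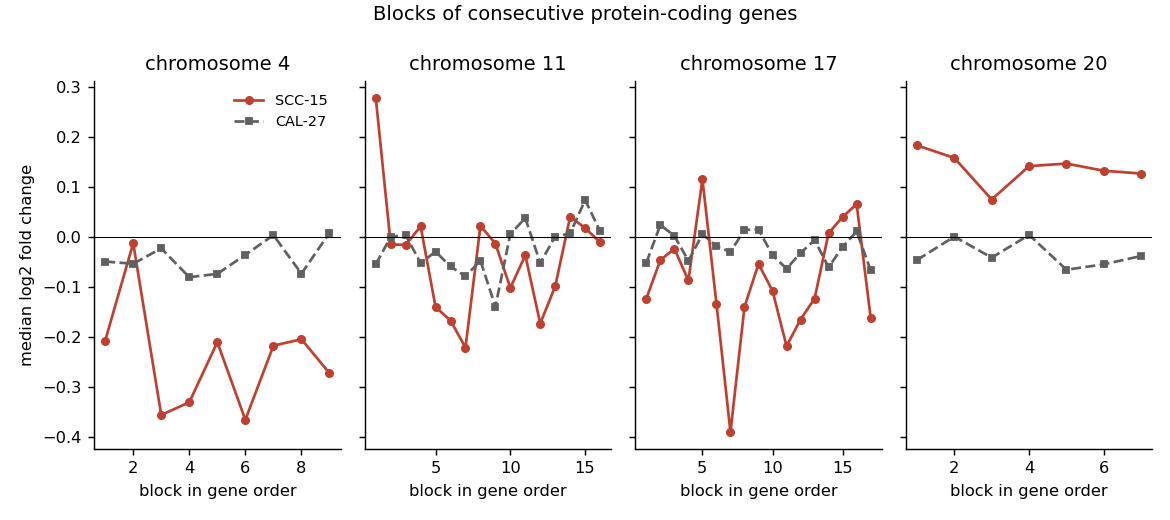
Median log2 fold change of consecutive blocks of about 40 protein-coding genes, in gene order along chromosomes 4, 11, 17 and 20, for SCC-15 (red circles) and CAL-27 (grey squares). In SCC-15 the lowest point is the block of chromosome 17 at -0.39 and the highest the first block of chromosome 11 at 0.28.

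The SCC-15 changes were set against those of CAL-27, which has control libraries of its own. A test of the difference between the lines (the interaction contrast of the same edgeR fit) called 4304 genes (25.4%). Of the 4694 genes called in SCC-15, 2625 (55.9%) were also called in this difference. Of the 213 past 1.5-fold, 185 (86.9%) were called in the difference, and in CAL-27 itself 48 were called in the same direction, 52 in the opposite one and 113 were not called. The genes of both sets were picked by their SCC-15 change, which also enters the difference, so high shares are partly built in. TTK itself fell less in CAL-27 (log2 fold change -0.54), and the difference was -0.67 ± 0.093 (SE, edgeR adjusted p = 2.37e-08).

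PDE2A had a log2 fold change of -0.34 in CAL-27 (edgeR adjusted p = 0.435), and the difference was -3.06 ± 0.34 (SE, edgeR adjusted p = 8.01e-12). Its mean level in CAL-27 was only 1.08 CPM in the controls and 0.850 CPM in the shTTK libraries. In the SCC-15 controls the mean was 172 CPM. CAL-27 therefore cannot show whether PDE2A would change in a line that expresses it well. PTGS2 had a log2 fold change of -0.03 in CAL-27, a difference of 1.53 ± 0.093 (SE, edgeR adjusted p = 1.10e-13). FN1, FAT2 and TXNIP changed in opposite directions in the lines, with -0.83, 0.63 and 0.60 in CAL-27 (edgeR adjusted p of the differences 1.13e-37, 9.08e-52 and 6.43e-29). TIMP2 fell in both lines (-1.34 in SCC-15 and -1.11 in CAL-27), as did AK4 (-1.32 and -0.82), and MMP13 rose in both (0.97 and 1.05). For MMP13 the difference was -0.09 ± 0.12 (SE, edgeR adjusted p = 0.676).

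**Figure D5:**
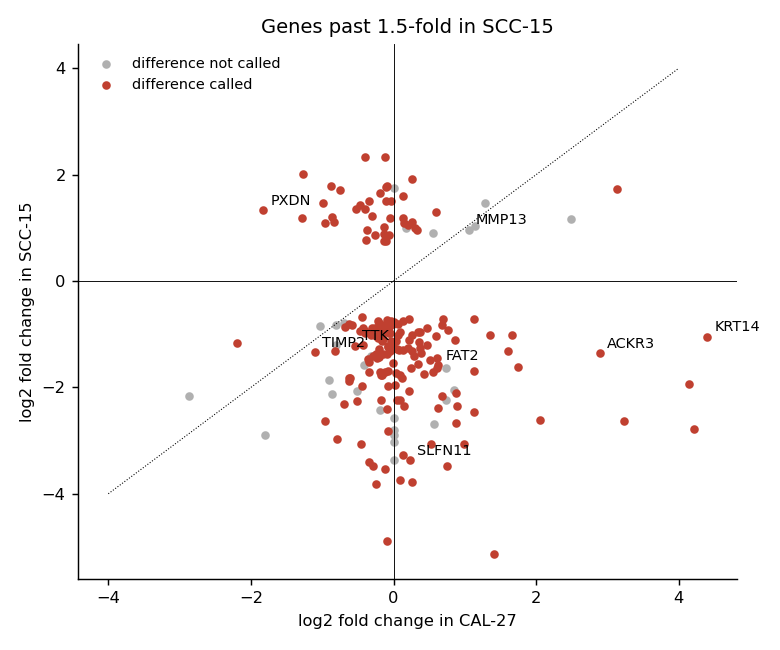
Log2 fold change in SCC-15 against that in CAL-27 for the 213 genes past 1.5-fold in SCC-15, with a dotted line of equality. Red points are the 185 genes with a called difference between the lines, and CAL-27 values run from -2.86 to 4.40.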

How the data were processed

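The members, gene lists and tests were chosen with earlier results of these data known. The authors deposited unnormalized counts of reads, 1 line per gene symbol. The tools named in the submitters' processing notes are featureCounts 2.0.1, STAR 2.7.7a and Trim Galore 0.6.6, with build hg38. Libraries were poly(A)-selected and strand-specific, per the labels' protocols. Neither the strand setting nor the handling of multi-mapping reads is stated in the sources used here. All 12 columns were mapped to samples (0 were not).

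Genes were kept by filterByExpr over 4 groups, scaled by TMM and fitted with edgeR 4.0.16 (quasi-likelihood, robust, R 4.3.3, 12 libraries, 4 group means, 8 residual degrees of freedom). Tests were two-sided, adjusted by Benjamini-Hochberg over all 16946 genes, and called under 0.05. Standard errors were taken as the size of the log2 change over the square root of F. The 1.5-fold test was glmTreat. Named genes were TTK, per direction the 20 largest changes (at least 5 CPM, no overlap), the 10 smallest adjusted p, the 8 largest CPM differences, up to 4 members per list, and the 6 genes furthest off in libraries numbered 1 and in the difference between lines. Not every gene that this rule takes is reported here. Some reported genes are outside it, among them CDC20, CD55, KRT7, PTGER4, VCL, MYH9, DUSP6 and EFNA5. These were picked from the lists with their values known. Positions are from GENCODE 29. Log2 CPM used a prior count of 2. Alternatives were RLE scaling, DESeq2 1.42.0, limma-voom 3.58.1, other filters, SCC-15 alone, replicate blocks and left-out libraries.

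The fit was tested on simulated SCC-15 counts of 16549 genes. It called 80% of those simulated at a log2 change of 0.5 and 98% at 1, and 6.81% of its calls were genes simulated without change. Every simulated gene had the same spread, only a small set of genes was changed, and no library stood apart. The real counts differ in these points, so the rates are not those of the real fit.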

Additional observations from a re-analysis of the deposited data

Results flagged for a closer look

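The change of TTK in SCC-15 differed from that in CAL-27 by -0.67 on the log2 scale (interaction test of the edgeR fit, adjusted p = 2.37e-08). Also listed are the 6 genes per direction with the largest such difference. They were taken from genes called both in SCC-15 and in this interaction test, with a mean of at least 5 CPM in the higher SCC-15 group. Their adjusted p-values under 0.05 in the interaction test are therefore built in by the choice. Keratin KRT14 (-5.44) and the keratin pseudogene KRT16P6 (-5.23) fell in SCC-15 and were higher in CAL-27 (edgeR adjusted p = 1.21e-50 and 0.00156), and reads of KRT16P6 may be shared with its parent gene. KRT16P6 was no longer called in SCC-15 when any single library numbered 2 or 3 was left out (edgeR adjusted p from 0.0533 to 0.118). AC105460.1 was not called without both libraries numbered 1, nor without control library 3 or shTTK library 2 (edgeR adjusted p from 0.0577 to 0.101). The chemokine scavenger receptor ACKR3 (-4.24), SLFN11 (-3.59), the potassium channel subunit DPP6 (-3.20) and the transcript AC105460.1 (-3.94) were lower relative to CAL-27 (edgeR adjusted p = 3.22e-26, 9.58e-26, 0.0415 and 0.0445). The intermediate filament gene VIM (4.07), MYPN (3.29), PXDN (3.16), the cytokine IL11 (2.53), MUC4 (2.47) and the olfactomedin OLFM1 (2.07) were higher relative to CAL-27 (edgeR adjusted p = 3.77e-05, 1.28e-06, 2.21e-18, 8.29e-10, 0.000398 and 0.000403). The 5 CPM limit did not apply to CAL-27, where several of these genes were near the floor. MYPN, MUC4 and OLFM1 went from 0.493 to 0.202, 0.412 to 0.161 and 0.562 to 0.305 CPM there. None of these changes was called in CAL-27 (edgeR adjusted p = 0.0530, 0.0835 and 0.156). PXDN and IL11 fell there from 3.10 to 0.871 and from 3.67 to 1.33 CPM, and KRT14 rose from 3.44 to 73.2 CPM.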

How the results depend on the processing

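TTK stayed called and lower under all 15 alternatives, and without any one SCC-15 library its log2 fold change ran from -1.32 to -1.13. The genes called ran from 4002 to 4245 without any one library (1917 to 2123 higher, 1979 to 2163 lower), those past 1.5-fold from 172 to 188, and the chromosome 4 genes called lower from 204 to 217. The test against 1.5-fold depended on the tool: 121 genes with DESeq2 (28 higher, 93 lower) and 127 with limma-voom (25 higher, 102 lower), in place of 213 (47 higher, 166 lower). The cause was not tested. By the check of deviations, libraries of the same number correlated at -0.08, -0.09 and -0.03 between the groups. This cannot tell whether they shared a preparation, since most genes varied little between libraries. The share of mitochondrially encoded RNA was highest in library 1 of both groups, so the samples were neither treated as pairs nor shown to be unpaired. With the replicate block the genes called in SCC-15 were 4636, and 4733 with a block of 1 term for number 1. Chromosome 4 values were recomputed under each alternative after seeing the data: 178 genes were lower without both libraries numbered 1, and the median was -0.17 with no count filter. Of 278 called named genes, 258 kept their call under every alternative that tested them, 20 lost it in at least 1 and 0 reversed. Of 960 list counts, 40 moved by more than 1.5 times. Genes below about 5 CPM are limited by depth.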
